A study of Mus musculus with 4 samples.

Results

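The chemokine receptor genes Cxcr3, Cxcr6, Cxcr5, Ccr2, Ccr4, Ccr6 and Ccr8 were followed on 4 Affymetrix MOE430A_2.0 arrays of mouse spleen T cells. Their products are carried by effector, memory and helper T cells. The members are the 10 probe sets that the platform annotation assigns to 1 of these 7 gene symbols alone, of 22626 probe sets that are not controls, and the 7 genes are among 12393 named genes. Each array holds RNA pooled from 2 C57Bl/6 mice. The groups are CD4+ and CD8+ cells of mice labelled as Gfi1 knockouts and CD4+ and CD8+ cells of mice labelled wildtype, all untreated, all described as CD44 low, with 1 array per group. Gfi1 encodes a DNA-binding protein that silences its target genes during blood cell development. The labels used here do not state which part of Gfi1 is deleted, nor how old the mice were. The sample titles end in N for both knockout arrays and in M for both wildtype arrays, and the labels do not say what these letters stand for. No group has a replicate, so the spread from animal to animal is unknown, and the small number of arrays limits precision.

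Chemokine receptors are receptors with 7 membrane-spanning segments that couple to inhibitory G proteins and steer cells along gradients of small secreted proteins, the chemokines. Naive T cells carry CCR7, which leads them into lymph nodes. After activation T cells gain other receptors that lead them to inflamed tissue, to B cell follicles or to barrier surfaces, and different helper lineages carry different sets. CXCR3 marks type 1 helper and effector CD8 cells, CXCR6 resident and effector cells, CXCR5 follicular helper cells, CCR6 type 17 helper cells, and CCR4 and CCR8 type 2 helper and regulatory cells. CCR2 serves inflammatory monocytes and effector T cells.

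Checks of the labels bear on every result. Gfi1 itself read 2272 on the wildtype-labelled CD4 array, 2891 on knockout CD4, 1158 on wildtype CD8 and 2447 on knockout CD8. The signal was therefore not lower on the arrays labelled knockout, and it was not checked whether its probe set lies in the deleted part. Cd44, the marker of the sort, read 8136 in CD4 and 5740 in CD8 cells labelled wildtype. It read 196 and 252 in those labelled knockout (limma adjusted p = 0.00229), while the labels call all 4 samples CD44 low. CD44 is low on naive and high on antigen-experienced T cells, and its signal moved with the genotype label. In CD4 cells all 7 receptors were, like Cd44, lower on the array labelled knockout. In CD8 cells Cd44 had a log2 fold of -4.51, while Cxcr6 had one of -0.14 and Ccr4 and Ccr8 were below the floor on both arrays. The part of Cd44 in the receptor values was not tested. Cd4 and Cd8a were above the floor on the arrays of their own subset and below it on the others. Cd8b1 was above the floor on all 4 arrays. It read 312 on wildtype CD4, 970.5 on knockout CD4, 26222 on wildtype CD8 and 25715 on knockout CD8. The 7 T cell markers listed summed to 65087 and 65828 on the CD4 arrays and to 97839 and 97629 on the CD8 arrays. These sums do not show single genes. Cd8b1 was 3.11-fold higher on knockout CD4 than on wildtype CD4. Cd5 was lower on both arrays labelled knockout, by 1.62-fold in CD4 cells and by 1.94-fold in CD8 cells. Signal values below a floor of 93.9, the 40th percentile of all values, were set to that floor before folds were taken, so a fold against such an array is a lower bound.

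Cxcr3 was lower in both subsets on the arrays labelled knockout, and lower still in CD4 cells. Its product binds the interferon-induced chemokines CXCL9, CXCL10 and CXCL11. Cxcr3 (probe set 1449925_at) had a signal of 13852.5 on the wildtype-labelled CD4 array, 183 on knockout CD4, 12355.5 on wildtype CD8 and 2774 on knockout CD8. Both arrays labelled wildtype were high, the knockout CD8 array was intermediate and the knockout CD4 array was low. On the array labelled knockout Cxcr3 was 75.5-fold lower in CD4 cells (log2 -6.24) and 4.45-fold lower in CD8 cells (log2 -2.16). In bulk RNA, fewer cells that express a receptor and less of its RNA per cell cannot be told apart. Of the 7143 genes measured above the floor on both CD4 arrays Cxcr3 had the lowest fold, and it held place 40 from the lowest of 7195 in CD8 cells.

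Cxcr6 showed another pattern. Its product is the receptor for CXCL16, a chemokine that is also made in a membrane-bound form. On the probe set with the higher mean, 1425832_a_at, Cxcr6 read 12476 on the wildtype-labelled CD4 array, 85.7 on knockout CD4, 4323 on wildtype CD8 and 3917 on knockout CD8. The second probe set, 1422812_at, read 7086, 76.7, 2552 and 2981 in the same order. Only the knockout CD4 array was below the floor, on both probe sets, and both CD8 arrays lay close together. In CD4 cells Cxcr6 was at least 133-fold lower on the array labelled knockout by the first probe set and at least 75.5-fold lower by the second. In CD8 cells the log2 fold was -0.14 by the first probe set and 0.22 by the second, so its sign depends on the probe set, and it was also above 0 with median centring (0.07) and with the mean over probe sets (0.04). In CD8 cells Cxcr6 held place 2240 from the lowest of 7195 genes.

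**Figure D1:**
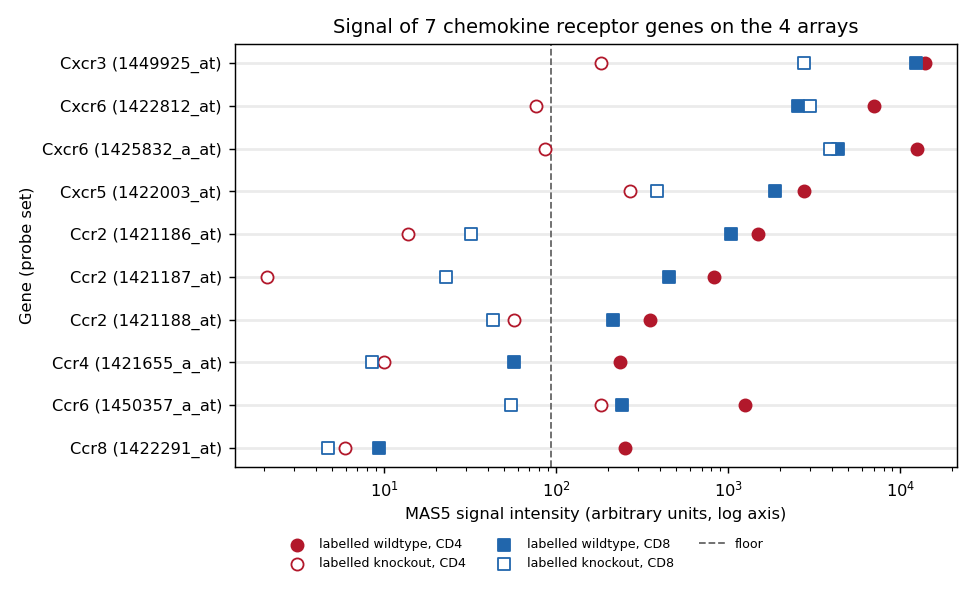
Signal intensity (arbitrary units, log axis) of the 10 probe sets of the 7 receptor genes on the 4 arrays, 1 point per array, with the floor of 93.9 as a dashed line. Every probe set is above the floor on the array labelled wildtype CD4, and the Cxcr6 probe sets alone have both CD8 arrays close together at high signal.

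The follicular receptor Cxcr5 was lower on both arrays labelled knockout. Its product binds CXCL13 and guides T and B cells into follicles. Cxcr5 (1422003_at) read 2754.5 on the wildtype-labelled CD4 array, 270 on knockout CD4, 1875 on wildtype CD8 and 388 on knockout CD8. Both knockout values lay below both wildtype values, and all were above the floor. The fold was 10.2 in CD4 cells (log2 -3.35) and 4.83 in CD8 cells (log2 -2.27), lower on the arrays labelled knockout, places 25 and 35 from the lowest of the genes so measured.

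Ccr2 was above the floor on the arrays labelled wildtype alone. Its product binds CCL2 and related chemokines and recruits monocytes and effector T cells to inflamed tissue. Ccr2 read 1481 on the wildtype-labelled CD4 array, 13.7 on knockout CD4, 1034 on wildtype CD8 and 32.1 on knockout CD8 on probe set 1421186_at. Its other probe sets read 827 and 352 on wildtype CD4, 2.1 and 57.0 on knockout CD4, 452 and 213 on wildtype CD8, and 22.8 and 43.2 on knockout CD8. All 3 probe sets thus separated the labelled genotypes in the same direction. Ccr2 was at least 15.8-fold lower in CD4 cells and at least 11.0-fold lower in CD8 cells on the arrays labelled knockout. The third probe set, 1421188_at, gave bounds of 3.75-fold and 2.27-fold.

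Ccr6, the receptor for CCL20, was highest in CD4 cells labelled wildtype. Ccr6 (1450357_a_at) read 1245.5 on the wildtype-labelled CD4 array, 183 on knockout CD4, 242 on wildtype CD8 and 54.5, below the floor, on knockout CD8. The 2 intermediate arrays, knockout CD4 and wildtype CD8, were 1 of each label. Ccr6 was 6.80-fold lower in CD4 cells and at least 2.58-fold lower in CD8 cells on the arrays labelled knockout, and the CD4 fold was place 50 from the lowest of 7143.

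The receptors of type 2 helper and regulatory cells, Ccr4 and Ccr8, were above the floor on a single array, that labelled wildtype CD4. Ccr4 (1421655_a_at), whose product binds CCL17 and CCL22, read 235 there, 10 on knockout CD4, 57.2 on wildtype CD8 and 8.5 on knockout CD8. Ccr8 (1422291_at), whose product binds CCL1 and CCL8 in mice, read 250 on wildtype CD4, 5.9 on knockout CD4, 9.4 on wildtype CD8 and 4.7 on knockout CD8. In CD4 cells Ccr4 was at least 2.50-fold and Ccr8 at least 2.66-fold lower on the array labelled knockout, and no fold was taken in CD8 cells.

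Seen together, all 7 receptors were at least 2-fold lower on the array labelled knockout in CD4 cells, where 7.72% of 8124 genes were. In CD8 cells 4 were, against 4.24% of 8085 genes. These 4, Cxcr3, Cxcr5, Ccr2 and Ccr6, were so in CD4 and CD8 cells alike, as were 2.34% of 7613 genes. None was at least 2-fold higher in either subset, which 2.07% of genes were in CD4 and 1.21% in CD8 cells. All 7 lay above the floor on at least 1 array and 2 of them, Cxcr3 and Cxcr5, on all 4. A receptor above it only on the wildtype array of a pair could only come out lower on the knockout array, which limits what these counts show. This holds for Cxcr6, Ccr2, Ccr4 and Ccr8 in CD4 cells and for Ccr2 and Ccr6 in CD8 cells. With the floor at the 60th percentile the count was 5 in CD4 cells, 3 in CD8 cells and 3 in both, and Ccr6 was at the floor on both CD8 arrays. Without a floor the count was 7 in CD4 cells, 6 in CD8 cells and 6 in both.

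A limma fit over the 8596 genes that exceeded the floor on 1 array or more took subset and labelled genotype as its terms, which leaves 1 residual degree of freedom. It reads disagreement of CD4 and CD8 cells as error, borrows strength from genes of similar signal, and holds nothing on how animals vary. For the labelled genotype limma called 2 of the 7 receptors at an adjusted p under 0.05, and both fell on the arrays labelled knockout, as did 0.465% of genes, while 0 rose, against 0.0814%. The called receptors were Ccr2 (adjusted p = 0.0138) and Cxcr5 (log2 -2.81 ± 0.30 SE, adjusted p = 0.0294), each lower in 2 of 2 pairs of arrays. Ccr2 entered the fit through the arrays labelled wildtype alone, and both knockout arrays stood at the same floor value, so its direction was set by the filter and its spread is that of the wildtype arrays. At an unadjusted p under 0.05 there were 5 receptors, Ccr2, Cxcr5, Cxcr3, Ccr6 and Cxcr6, against 13.1% of genes. Cxcr3, with a fitted log2 fold of -4.20 ± 0.84 SE, was not called (adjusted p = 0.103), and neither were Ccr6 (adjusted p = 0.103), Cxcr6 (0.353), Ccr8 (0.492) or Ccr4 (0.504). For Cxcr3 and Cxcr6 the folds of the subsets lay 4.08 and at least 6.91 log2 units apart, which this fit takes as error. By size this difference put Cxcr3 in place 7 of the 6882 genes that exceeded the floor on every array. In limma both calls were lost after quantile normalization (adjusted p = 0.0578 for Ccr2 and 0.117 for Cxcr5) and without the trend in the variance (0.061 and 0.133), and Cxcr3 was called where the test kept to those genes (adjusted p = 0.0139).

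**Figure D2:**
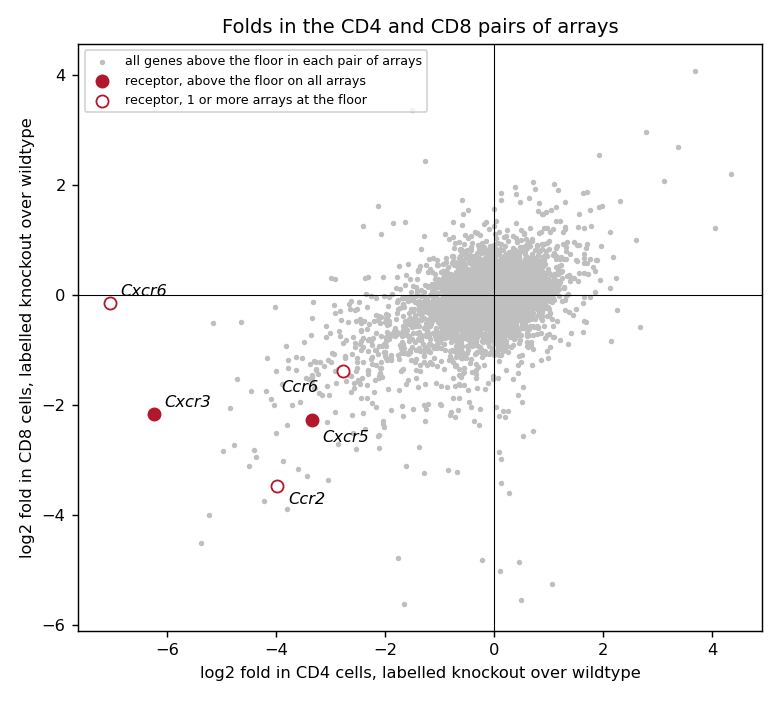
Log2 fold of the array labelled knockout over that labelled wildtype in CD4 cells (horizontal) and CD8 cells (vertical), with 1 grey point for each gene that exceeded the floor in both pairs of arrays and the 5 such receptors named. Open circles have an array at the floor. Cxcr6 lies at the left edge near 0 on the vertical axis, and Cxcr3, Cxcr5, Ccr2 and Ccr6 are below 0 on both.

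The same arrays also set CD8 against CD4 cells within each labelled genotype, and here the type 1 receptors differed between the labels. On the arrays labelled wildtype, Cxcr3 was near level between the subsets (log2 -0.16 for CD8 over CD4), Cxcr6 was 2.89-fold lower in CD8 cells and Ccr6 5.14-fold lower. Ccr4 and Ccr8 were at least 2.50-fold and 2.66-fold lower in CD8 cells, Cxcr5 had a log2 fold of -0.56 and Ccr2 of -0.52. On the arrays labelled knockout, Cxcr3 was 15.1-fold higher in CD8 cells and Cxcr6 at least 41.7-fold higher. The fold of Cxcr3 was place 5 from the highest of 7063 genes measured above the floor on both arrays. Cxcr5 had a log2 fold of 0.53 there, Ccr6 was at least 1.95-fold lower in CD8 cells, and Ccr2, Ccr4 and Ccr8 were below the floor in both subsets.

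By count, 4 receptors were at least 2-fold lower in CD8 than in CD4 cells on the arrays labelled wildtype, where 5.15% of 8333 genes were, and 0 were higher, against 3.2% of genes. On the arrays labelled knockout 2 were at least 2-fold higher in CD8 cells, where 2.14% of 7810 genes were, and 0 were lower, against 1.4%. In the wildtype pair Ccr4 and Ccr8 were above the floor on the CD4 array alone. In the knockout pair Cxcr6 was above it on the CD8 array alone. A receptor above it on 1 array of a pair had its direction fixed by the filter, which limits what these counts show. The difference between the labels was not tested, since a fit with that term has no residual degree of freedom. For the subset, limma called 0 of the 7 receptors, against 0.0698% of genes that were lower and 0.174% that were higher in CD8 cells, and 1, Ccr6, had an unadjusted p under 0.05 (adjusted p = 0.259), against 9.56% of genes.

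**Figure D3:**
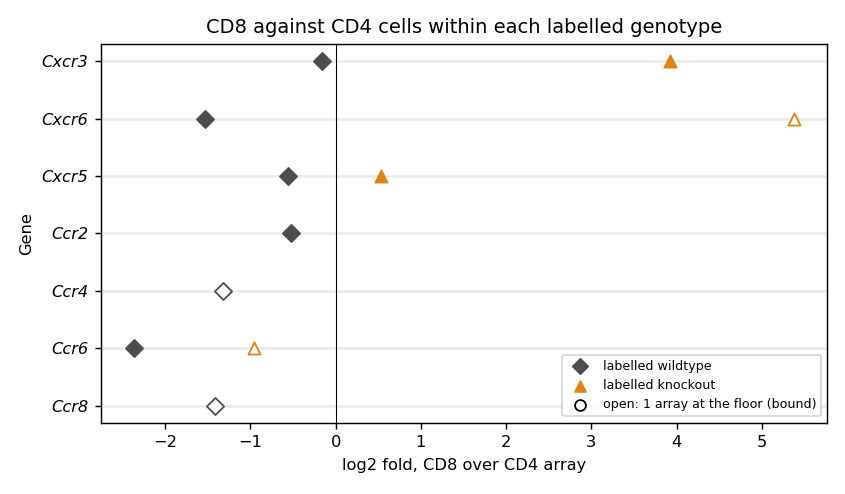
Log2 fold of the CD8 over the CD4 array for each receptor, as diamonds for the arrays labelled wildtype and triangles for those labelled knockout, with open symbols where 1 array is at the floor and no symbol where both are. Cxcr3 and Cxcr6 lie at 3.92 and at least 5.38 on the arrays labelled knockout, and at or below 0 on those labelled wildtype.

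The windows around the start sites of 3 receptors are shown because the folds of Cxcr3 and Cxcr6 lay far apart between the subsets and Ccr2 was called by limma. The sequences are those of RefSeq for GRCm38.p6, from 250 bases before to 50 bases after the annotated start, read 5′ to 3′ on the strand of the gene. Capitals mark AATC, the core of the sites that GFI1 binds, and its reverse strand GATT. The Cxcr3 window is chrX:101734098-101734397 on the minus strand, that of Cxcr6 is chr9:123806227-123806526 on the plus strand and that of Ccr2 is chr9:124101933-124102232 on the plus strand.
Cxcr3: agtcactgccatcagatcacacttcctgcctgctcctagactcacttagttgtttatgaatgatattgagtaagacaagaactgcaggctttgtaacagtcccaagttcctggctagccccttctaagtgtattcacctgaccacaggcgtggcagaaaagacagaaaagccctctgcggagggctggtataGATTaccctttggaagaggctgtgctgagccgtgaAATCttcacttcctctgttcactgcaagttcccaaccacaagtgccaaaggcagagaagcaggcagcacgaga
Cxcr6: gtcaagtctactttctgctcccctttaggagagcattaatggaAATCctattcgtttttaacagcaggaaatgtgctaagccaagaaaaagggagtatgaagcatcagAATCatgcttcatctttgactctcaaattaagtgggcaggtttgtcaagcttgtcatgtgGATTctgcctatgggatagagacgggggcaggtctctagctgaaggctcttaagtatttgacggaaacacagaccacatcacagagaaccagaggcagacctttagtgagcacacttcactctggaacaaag
Ccr2: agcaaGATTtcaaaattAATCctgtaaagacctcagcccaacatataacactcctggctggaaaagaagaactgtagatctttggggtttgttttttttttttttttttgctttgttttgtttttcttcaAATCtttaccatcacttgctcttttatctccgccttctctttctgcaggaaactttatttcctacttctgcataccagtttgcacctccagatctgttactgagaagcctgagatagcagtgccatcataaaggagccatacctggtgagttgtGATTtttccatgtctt
Cxcr3 holds 2 such matches, Cxcr6 3 and Ccr2 4. A window was available for 6 of the 7 genes, with 2 for Ccr6, and 6 of these 7 windows hold the core on either strand, that of Ccr4 being without it, while 73.1% of all 32851 promoter windows hold it. The longer pattern AATCNNNGC was in 0 of the 7 and in 10.3% of all windows. The T-box core GGTGTGA, the letters that T-bet and Eomes bind, was in 0 of the 7 and in 3.98% of all windows. A match is a description of the sequence and is no evidence of binding.

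By place in the genome, 5 of the 7 genes are on chromosome 9 of the RefSeq annotation, with Cxcr3 on chromosome X and Ccr6 on chromosome 17. Cxcr6 and Ccr2 belong to one cluster of receptor genes, with Xcr1, Ccr1, Ccr1l1 and Ccr3 between them and Ccr9 beyond the other side of Cxcr6. The members of this cluster did not share a pattern. Ccr9, a receptor of gut and thymus homing, read 2334 on the wildtype-labelled CD4 array, 824 on knockout CD4, 839 on wildtype CD8 and 8690 on knockout CD8. It was 2.83-fold lower in CD4 and 10.4-fold higher in CD8 cells on the arrays labelled knockout, and its other probe sets gave the same directions. Xcr1 was above the floor on the wildtype CD8 array alone, at 250, and Ccr1 and Ccr3 were below it on all arrays. Over the 5 nearest protein-coding genes on either side of each member, 28 genes that are no members were above the floor. Of these 1 (Ccr9) was at least 2-fold lower in CD4 cells, where 7.72% of all genes were. In CD8 cells 2 (Xcr1 and Cx3cr1) were, against 4.24% of genes, and 0 were in both subsets, against 2.34%. Xcr1 and Cx3cr1 were above the floor on wildtype CD8 alone, so their direction was fixed by the filter.

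The patterns most like those of the receptors were ranked by Euclidean distance of log2 values over the 4 arrays, after taking away the mean of each gene, among 8595 other genes. For Cxcr3 the nearest were Tbx21 (distance 0.99), which encodes T-bet, the chemokine gene Ccl5 (1.07) and Cxcr6 (1.54). The nearest to Cxcr6 were Cxcr3 (1.54), Tbx21 (2.07) and Ccl5 (2.42), so Cxcr6 had no close match. Cxcr5 was nearest to the annexin gene Anxa2 (0.07), to Fignl1 (0.31) and to Uhrf1 (0.43), which helps to maintain DNA methylation. For Ccr2 they were the killer receptor gene Klrk1 (0.39), the TNF family ligand gene Tnfsf14 (0.47) and the interferon gamma gene Ifng (0.57). Ccr6 was nearest to Mdfic (0.23), the signalling inhibitor gene Spry1 (0.47) and the prion protein gene Prnp (0.53). Ccr4 and Ccr8 were measured above the floor on 1 array, so many genes share their pattern, and their nearest genes, among them Coro2b for both, say little. Between the members, Ccr4 and Ccr8 were closest (0.08), followed by Cxcr5 and Ccr2 (0.98), and Cxcr6 was at least 3.59 from each of the other receptors except Cxcr3.

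Other chemokine receptors gave mixed directions. Of 9 that exceeded the floor somewhere, limma called 0 for the labelled genotype, and 3 had an unadjusted p under 0.05, against 13.1% of genes. In CD4 cells 2 were at least 2-fold lower and 1 higher, against 7.72% and 2.07% of genes. In CD8 cells 2 were lower and 2 higher, against 4.24% and 1.21%. Ccrl2 in CD4 cells, and Cx3cr1 and Xcr1 in CD8 cells, were above the floor on the wildtype array alone. Their direction was fixed by the filter. The median log2 folds were 0.18 and 0.06 against 0.0 over all genes in each subset, with bounds taken at their value. Ccr7 read 4805 on the wildtype-labelled CD4 array, 15625 on knockout CD4, 8380 on wildtype CD8 and 12549 on knockout CD8 (log2 folds of 1.70 and 0.58). Cxcr4, the receptor for CXCL12, had log2 folds of 0.73 and -0.17. Ccr10, a skin homing receptor, had log2 folds of 0.46 and 1.70, and the atypical receptor gene Ccrl2 was at least 4.93-fold lower in CD4 cells with a log2 fold of -0.52 in CD8 cells.

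Of 13 genes of chemokines that bind the 7 receptors, 6 were above the floor on at least 1 array, limma called 0 for the labelled genotype, and 2 had an unadjusted p under 0.05, against 13.1% of genes. Their median log2 folds were -0.14 in CD4 and -0.52 in CD8 cells. The CXCR3 ligand gene Cxcl9 read 641 on the array labelled wildtype CD8 and at most 16.4 on the other 3. Cxcl16, the ligand gene for CXCR6, read 542 on that array, and 139, 115 and 106 on wildtype CD4, knockout CD4 and knockout CD8. Cxcl10 was highest on wildtype CD4 at 592, against 43.1 on knockout CD4, 184 on wildtype CD8 and 164 on knockout CD8. Ccl1, a ligand gene for CCR8, read 358 on wildtype CD4, 12.3 on knockout CD4, 130 on wildtype CD8 and 41.3 on knockout CD8. The CXCR5 ligand gene Cxcl13 was highest on knockout CD4 at 132, against 21.0 on wildtype CD4, 117 on wildtype CD8 and 70.5 on knockout CD8. The CCR2 ligand genes Ccl2, Ccl7 and Ccl12 and the CCR8 ligand gene Ccl8 were below the floor on all 4 arrays. So were the CCR4 ligand gene Ccl17 and the CCR6 ligand gene Ccl20.

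Lineage factors of the helper programmes that these receptors mark were measured in the same way. Of 8 above the floor, limma called 1, against 0.465% of genes that were called lower. This was Eomes, which fell on the arrays labelled knockout (fitted log2 -1.82 ± 0.19 SE, adjusted p = 0.0294, with -1.94 in CD4 cells and -1.70 in CD8). In CD4 cells 7 were at least 2-fold lower, against 7.72% of genes, and in CD8 cells 2 were, against 4.24%. Of the CD4 pair, Tbx21 and Zbtb16 were above the floor on the wildtype array alone. Their direction there was fixed by the filter, which limits what the CD4 count shows. The median log2 folds were -1.57 and -0.44. Tbx21, the factor of type 1 cells, read 2689 on the wildtype-labelled CD4 array, 65.6 on knockout CD4, 3599 on wildtype CD8 and 864 on knockout CD8, the same order of labels within each subset as Cxcr3. Bcl6, the factor of follicular helper cells, had log2 folds of -1.24 and -0.63, and Gata3, that of type 2 cells, -1.25 and -0.50. Rora, a factor of type 17 cells, was 9.99-fold lower in CD4 cells and had a log2 fold of -0.12 in CD8 cells. Another Rora probe set, 1420583_a_at, was at least 8.85-fold lower in CD4 cells and had a log2 fold of -0.75 in CD8 cells. Foxp3, that of regulatory cells, read 824 on wildtype CD4 and 221 on knockout CD4, and was below the floor on both CD8 arrays. Foxp3 was highest on the array labelled wildtype CD4, as were all 7 receptors, Bcl6, Gata3, Rora and Zbtb16. Tbx21, Eomes and Stat4 were highest on wildtype CD8.

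The shared machinery of receptor signalling stood apart from the receptors. Of 19 genes above the floor, limma called 0 for the labelled genotype (1 at an unadjusted p under 0.05, against 13.1% of genes), and all 19 were above the floor on all 4 arrays. The median log2 folds were -0.10 in CD4 and -0.16 in CD8 cells. The inhibitory G protein gene Gnai2 read 9086 on the wildtype-labelled CD4 array, 9310 on knockout CD4, 7657 on wildtype CD8 and 8044 on knockout CD8, and the arrestin gene Arrb2 had log2 folds of 0.22 and -0.21. The gene at least 2-fold apart was Gng2, which encodes a G protein gamma subunit, with log2 folds of -2.03 and -0.89 (adjusted p = 0.103). Pik3cg, the gene of a phosphoinositide kinase that G proteins activate, had log2 folds of -0.66 and -0.42.

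**Figure D4:**
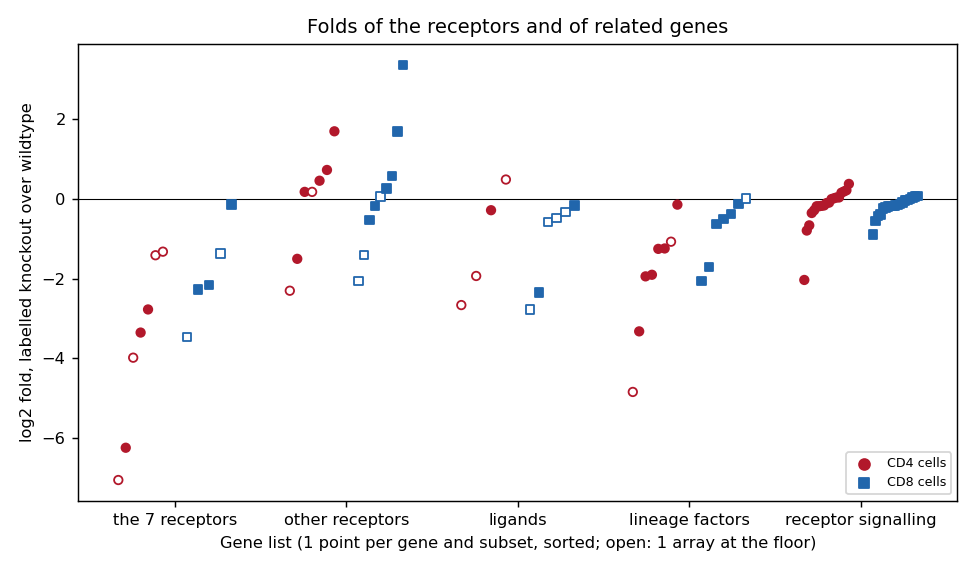
Log2 folds of the array labelled knockout over that labelled wildtype for the 7 receptors and for 4 lists of related genes, 1 point per gene and subset, sorted within each list, with open points where 1 array is at the floor and genes at the floor on both arrays left out. Receptor signalling genes lie near 0 with Gng2 below, while the receptors in CD4 cells run down to -7.05.

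Markers of other cell types that carry these receptors were measured beside them. B cells carry CXCR5 and CCR6, and of 7 named B cell genes Cd79a, Ms4a1 and Pax5 were below the floor on all 4 arrays. Cd22 fell (limma adjusted p = 0.0294), by 7.30-fold in CD4 cells and by at least 6.55-fold in CD8 cells, and Cd79b read 305, 57.1, 759 and 737.5 on wildtype CD4, knockout CD4, wildtype CD8 and knockout CD8. The summed B cell signal was 15567, 16983, 12616 and 13595 in the same order, most of it from Ighm. The part of B cells in the values of these receptors was not tested.

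Monocytes carry CCR2, and of 7 named monocyte and macrophage genes Cd14 was below the floor on all arrays and 5 were above it on each array labelled wildtype. Their summed signal was 678 on wildtype CD4, 704 on knockout CD4, 1153 on wildtype CD8 and 564 on knockout CD8. Of these genes 5 were above the floor on wildtype CD4 and 3 on knockout CD4. Single genes differed in direction. In the order wildtype CD4, knockout CD4, wildtype CD8 and knockout CD8, Cd68 read 140.5, 95.4, 342 and 137. Lyz2 read 101.5, 36.1, 285 and 3.3 in that order, and Fcgr3 read 108, 231, 111.5 and 116. The part of monocytes in the Ccr2 values was not tested. The 5 dendritic cell genes were all above the floor on the array labelled wildtype CD8, with a sum of 2094 there against 316, 406 and 219 on wildtype CD4, knockout CD4 and knockout CD8. On that array Cxcl9, Cxcl16, Cx3cr1 and Xcr1, itself one of these dendritic cell genes, also had their highest signal, while the 7 receptors had theirs on wildtype CD4. The part of these cells in the CD8 values of the receptors was not tested.

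Natural killer cell genes summed to 3492, 5189, 21255 and 17819 in that order, and their defining gene Ncr1 was below the floor on all arrays. Most of the sum came from Klrd1, which read 2955, 3695, 13450 and 15978.5. The other genes differed in direction. Gzma read 185, 103, 5633 and 621, lower on the knockout array in both subsets. Prf1 read 314, 1375, 2170 and 1214, higher on knockout in CD4 and lower in CD8 cells. Innate-like T cells carry CXCR6 and CCR6, and 3 of the 8 genes listed for them were named. Their sum was 303 on wildtype CD4, 222 on knockout CD4, 308 on wildtype CD8 and 210 on knockout CD8. One of them, Zbtb16, read 198 on wildtype CD4, where Cxcr6 was highest, and 64.7, 8.0 and 94.5 on knockout CD4, wildtype CD8 and knockout CD8. Its other probe set, 1419874_x_at, read 755, 11.7, 37.0 and 8.0. The remaining genes, Blk and Sox13, were instead highest on wildtype CD8. Blk read 200 there and 93.5 on wildtype CD4, and Sox13 read 100 and 11.6. The part of such cells in the Cxcr6 values was not tested.

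**Figure D5:**
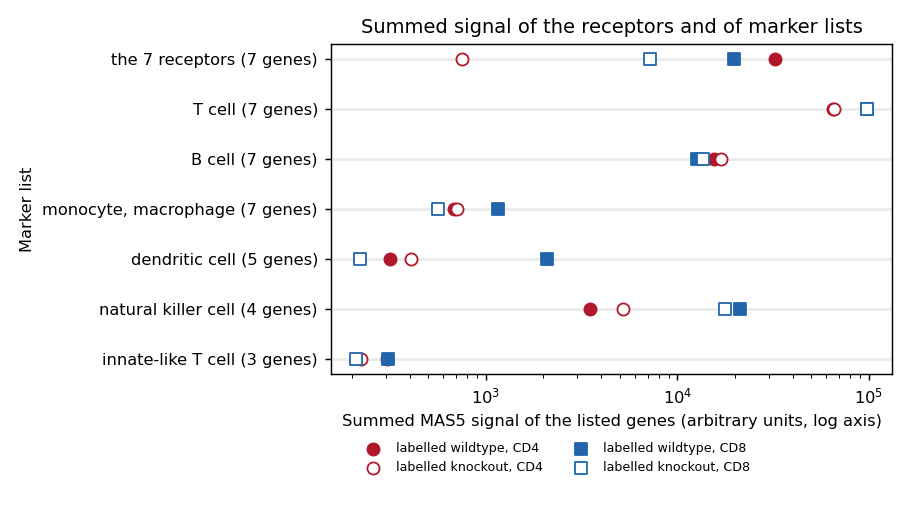
Summed signal (arbitrary units, log axis) of the 7 receptors and of 6 marker lists on the 4 arrays, 1 point per array. The receptors sum to 752 on knockout CD4 and to 32295 on wildtype CD4, the T cell markers lie between 65087 and 97839, and the dendritic cell markers are highest on wildtype CD8.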

How the data were processed

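Gene expression was measured on 4 arrays, 1 for each labelled genotype and subset. The authors deposited 1 signal intensity per probe set on a linear scale. GCOS 1.4 and MAS5 are listed in the submitters' processing notes. Of 22690 probe sets, 64 controls were left out, 20380 had 1 gene symbol in the platform annotation, 691 several and 1555 were not listed. Symbols were brought up to date through gene IDs, of which 20351 matched RefSeq (GRCm38.p6). Where a gene had several probe sets, the one of highest mean log2 signal stood for it. Values were set to a floor of 93.9 (40th percentile) and taken to log2. Between 58.4% and 61.6% of probe sets lay above it, and median signals were 189 to 235. Folds of at least 2 were counted, and limma 3.58.1 (R 4.3.3, eBayes with trend, prior degrees of freedom 5.11) was run on 8596 genes with subset and labelled genotype as terms, Benjamini-Hochberg adjustment and a threshold of 0.05. CD4 and CD8 arrays entered as independent samples, and whether they share mice is not stated. The fit was tested on simulated data.

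Named in the text are the 7 receptors, list genes called by limma, up to 4 others per list by the smaller fold over both subsets, the 3 genes nearest in pattern, and neighbours in the annotation. Other list genes (Cxcl9, Foxp3, Gnai2, Arrb2, Zbtb16, the B cell and ligand genes below the floor and the like) were chosen after their values were seen. The receptors and the gene lists were chosen with earlier results of these data known. Other floors, scalings, filters and probe set rules were tried. Folds were computed with pandas 2.3.3 and numpy 2.4.6 in Python 3.11.15 and drawn with matplotlib 3.10.9.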

Additional observations from a re-analysis of the deposited data

Results flagged for a closer look

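In 3 receptors CD8 cells lay on one side of CD4 cells on the arrays labelled wildtype and on the other side on those labelled knockout. The log2 fold of CD8 over CD4 was -1.53 for Cxcr6 on the arrays labelled wildtype and at least 5.38 on those labelled knockout. For Cxcr3 it was -0.16 and 3.92, and for Cxcr5 -0.56 and 0.53. With 1 array per group none of these differences was tested, and the values of Cxcr5 and that of Cxcr3 on the arrays labelled wildtype are under 2-fold. The second probe set of Cxcr6 gave -1.47 and at least 4.99.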

How the results depend on the processing

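Counts of receptors called by limma for the labelled genotype depended on the settings: 2 as reported, 5 with a floor at the 25th percentile, 1 (Cxcr5) at the 60th, 4 without a floor, 4 with log2 of the value plus 16, 0 after quantile normalization, 1 (Ccr2) with median centring, 0 with the mean over probe sets, 0 with all genes tested and 0 without the trend. Over these alternatives the adjusted p ran from 7.84e-07 to 0.845 for Ccr2, from 1.09e-07 to 0.845 for Cxcr5 and from 3.56e-06 to 0.862 for Cxcr3. Cxcr3 and Cxcr5 were called where every array had to exceed the floor. The 0 calls for the subset became 2 (Ccr6 and Cxcr3) with the lower floor and 1 (Ccr6) without a floor. The 4 receptors at least 2-fold lower in CD8 than in CD4 cells on the arrays labelled wildtype became 2 with the higher floor, 2 without multi-transcript probe sets, which drops Ccr4 and Ccr6, and 0 where every array had to exceed it. On the arrays labelled knockout 1 receptor was lower in CD8 cells, in place of 0, with the lower floor, without a floor, with log2 of the value plus 16, after quantile normalization and with median centring. The filter by which every array had to exceed the floor leaves Cxcr3 and Cxcr5. It gave 2 lower in CD4, 2 in CD8 and 2 in both subsets, and 1 higher in CD8 on the arrays labelled knockout. Without a floor, the receptors at least 2-fold lower in CD8 cells and in both subsets were 6 each, in place of 4. With log2 of the value plus 16 they were 5 each. Without a floor 3 receptors, in place of 2, were higher in CD8 cells on the arrays labelled knockout. With the higher floor the 7 receptors at least 2-fold lower in CD4 cells became 5. The 4 in CD8 cells and the 4 in both subsets became 3 each there, and Ccr6 had no fold in CD8 cells. Apart from these and the fits that drop members, the cause was not tested.

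No fold of 2 or more changed sign under any alternative that gave a value. Other floors, log2 of the value plus 16 and filters on genes cannot reverse the order of arrays for a given probe set. Only the scalings and probe set rules could have changed a sign. Of the folds recomputed, 38 in CD4 and 42 in CD8 cells stayed within 1.5-fold, while 16 and 12 moved further. The 42 include values of 0.0 for Ccr4 and Ccr8, given where both CD8 arrays stood at the floor. Both the 38 and the 42 include the filter by which every array had to exceed the floor, which repeats the values as reported. These counts therefore overstate how stable the folds were. Median centring shifts the median log2 fold of genes that exceed the floor throughout to 0.32 (CD4) and 0.21 (CD8), from 0.01 and 0.0 as deposited. Of genes at least 2-fold apart in CD4 cells, 168 were higher and 627 lower as deposited, and 421 and 469 with median centring. Leaving out a replicate was not possible with 1 array per group. No paired analysis was possible because each group has 1 array and the labels give no replicate numbers. Signals near the floor limit Ccr4, Ccr8 and Ccr6 in CD8 cells.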
